A study of Drosophila melanogaster with 12 samples.

Results

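The input libraries of an RNA immunopurification study of adult Drosophila melanogaster heads were examined as a description of the head transcriptome and of the 3′ ends that its genes use. The input is head lysate taken before any antibody is added, so that it samples the RNA of the whole head. It made up 4 of the 12 libraries of the series and was chosen by its column names, w118, pum, fne and rbp9, in the raw-count tables of genes and of clusters, a cluster being a group of neighbouring 3′ ends. The other libraries were 4 of RNA recovered with Flag-tagged Pumilio (Pum xRIP) and 4 from untagged flies carried through the same steps (control xRIP), and they were used here only to set the number of 3′ ends beside them.

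Per the study's methods, the heads came from w1118 flies, a white-eyed laboratory strain, and from pumFlag flies, in which the endogenous pumilio locus carries a C-terminal Flag-HA tag. Males and females were mixed in equal amounts, and the head powder was cross-linked with UV light before lysis, so the inputs were cross-linked too. The labels give a wild-type genotype and no treatment for all 4 inputs, but the titles call 2 of them inputs of mixed genotype. The labels do not tell which of these is the column fne and which is rbp9, so these columns were used as inputs with no further identity. Nothing says whether the 4 inputs came from separate cultures of flies, and age was not given in the sources used here. A spread between inputs therefore covers genotype, flies and library preparation together, which cannot be told apart.

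A Drosophila head holds the compound eyes, the brain with its neurons and glia, the muscles that move the mouthparts, antennae and eyes, fat body and cuticle, and each of these tissues adds its own transcripts to the lysate. Most messenger RNAs end where the cleavage machinery finds a polyadenylation signal, usually AAUAAA, a short way upstream of the cut, and a gene with several such signals can make transcripts with shorter or longer 3′ untranslated regions (UTRs). In flies, neurons are known for skipping early signals and making long UTRs with the help of the RNA-binding proteins ELAV and FNE, and Rbp9 is the other member of that protein family. In 3′-end sequencing reads are meant to come only from the end of a transcript. Counts then need no correction for gene length, and the position of the reads tells which end was used. The primer can also anneal at a run of A inside an RNA, and such reads do not mark an end.

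The annotated ends of genes to which the results return are shown here as they stand in the RefSeq genome sequence of dm6. Capitals mark AATAAA, the DNA form of the signal, in a window close to the annotated 3′ end of the gene (Ensembl release 115). They are printed 5′ to 3′ on the strand of the gene. Arr1 (chr2L:18081268-18081297, plus strand) and ninaE (chr3R:19886265-19886294, minus strand) are abundant eye genes, Rh4 (chr3L:16852534-16852563, minus strand) was nearly missing from 1 input, Yp1 (chrX:10055464-10055493, plus strand) is made by the fat body of females, Fdh (chr3R:10870906-10870935, minus strand) changed its end between inputs, and CG7484 (chr3L:17655616-17655645, plus strand) was at 0 in 1 input.
Arr1: taaAATAAAaatgtacctaattacttttat
ninaE: aaaaaaAATAAAtgcaaacgaactagaaaa
Rh4: gaaataAATAAAtagtaacttattgcaaac
Yp1: tcagcaAATAAAcgctcgataaagagctta
Fdh: cttaaaatAATAAActcccagtgtatatgt
CG7484: gtagattAATAAAatccgaaacaaaactat

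AATAAA was searched on the strand of the gene, and not on the other strand, in the 50 bases before the annotated end that lies farthest downstream. It was found in 5732 of 10331 genes, 55.5%, and either AATAAA or its common variant ATTAAA, which cannot start at the same base, in 65.6%. A match describes these letters in the annotation's window. Because the deposited clusters carry numbers and no coordinates, it is not known that the reads of a gene ended at the site shown.

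The 4 inputs held 9563433 to 13726254 counts. The tables listed 10422 genes with 56392 clusters, of which 515 genes and 13064 clusters had no count in any input. With all inputs thinned at random to the smallest total, 9560, 8678, 9091 and 9003 genes had at least 1 count in the w118, pum, fne and rbp9 inputs (9083 ± 364, SD, n = 4). CPM below stands for the counts of a gene per 1000000 counts of the library. On this scale 7297 genes reached 1 CPM in all 4 inputs. A gene listed at 0 could still be present at up to 0.219 to 0.314 CPM, the level of 3 counts, and intervals and limits of this kind cover counting error only.

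Both w118 and pum stood apart from the other inputs in part of their content. Genes named as ribosomal RNA or ribosomal RNA pseudogene took 16.5% of the counts of the pum input, against 7.52%, 7.46% and 4.89% in the w118, fne and rbp9 inputs. Protein-coding genes took 74.3% in pum and 81.7% to 82.3% in the others. The w118 input in turn had the highest summed share of 14 genes of testis and male accessory gland and of 25 genes of gut enzymes, which are given with their values further on. Results that rest on w118 are therefore given without it as well. TMM scaling, which assumes that most genes keep their level, gave library factors of 1.12, 0.841, 1.08 and 0.983 for w118, pum, fne and rbp9, so levels in pum would stand higher against the others than on the library total used here, and counts of genes that are highest or lowest in an input hold for the library total.

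The most abundant transcripts of the head were a noncoding RNA, a ribosomal RNA pseudogene and genes of the eye. The noncoding gene lncRNA:CR34335 (chrX:3545750-3546110, minus strand) took 8.37%, 7.08%, 8.44% and 11.6% of all counts in the w118, pum, fne and rbp9 inputs. The ribosomal RNA pseudogene 18SrRNA-Psi:CR41602, also on the X chromosome, took 6.14%, 13.7%, 5.82% and 3.48% of the counts in the same order. These genes were the leading pair in every input, with the pseudogene ahead only in pum. Such pseudogenes share sequence with ribosomal RNA, and their counts cannot be assigned to a single locus.

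The abundant noncoding gene contains a genomic run of A, just beyond an annotated end that lies inside the gene, and at such a run the oligo(dT) primer of the method can anneal inside an RNA. This end is at base 3545862, while the gene as annotated runs on to base 3545750. Nearly all its counts fell into a single cluster, with 99.1% to 99.5% of the gene in each input, and which end this cluster lies at is not known. A shorter gene, lncRNA:CR40469, aligned to it over 214 bases with 99.1% identity, and was followed by the same kind of run. The 30 bases around these annotated ends are shown for that reason, with the bases downstream of the end in capitals, for lncRNA:CR34335 (chrX:3545847-3545876, minus strand) and lncRNA:CR40469 (chrX:122692-122721, plus strand).
lncRNA:CR34335: acaagcataaaatccAAAAAAAAAAAAAAA
lncRNA:CR40469: acaagcaaaaaatccAAAAAAAAAAAAAAA

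The authors removed signal followed by 6 A or by 7 A in 10 bases, but not within 25 bases of an end in their annotation. Whether signal at these places was kept is not known, because the ends shown come from release 115 and the clusters carry no coordinates. lncRNA:CR40469 was at 125, 3173, 90.4 and 82.3 CPM in the w118, pum, fne and rbp9 inputs. It was high in pum alone, while its longer copy was lowest there. As the copies are nearly identical, the split of reads between them is uncertain. Whether priming on the run of A adds to their counts was not tested.

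Genes of phototransduction followed in rank. Arr2, an arrestin that binds activated rhodopsin and ends its signal, had the highest level of all genes of the eye, with 18721, 13131, 16671 and 12825 CPM in the w118, pum, fne and rbp9 inputs (15337 ± 2852, SD, n = 4). Ggamma30A, the gamma subunit of the G protein of photoreceptors, stood at 8116 ± 1271 CPM and was highest in pum. Arr1, the other arrestin of the eye, stood at 5826 ± 793 CPM. The opsin ninaE, the visual pigment of the outer photoreceptors, had 4931, 2396, 4443 and 2551 CPM, so that w118 and fne were about alike and pum and rbp9 both lay lower.

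**Figure D1:**
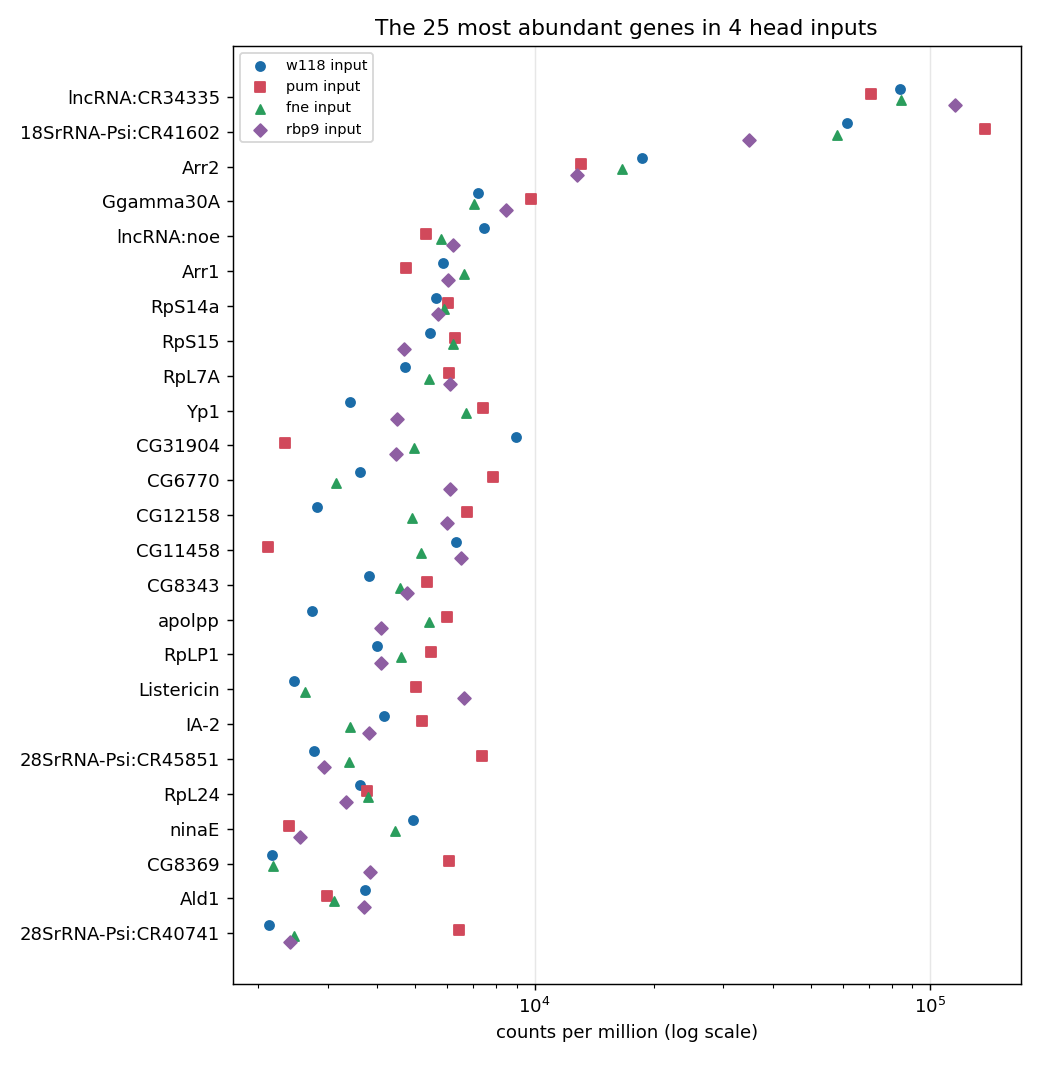
The 25 genes with the highest mean level over the 4 head inputs, with CPM on a log axis and a symbol for each input (w118, pum, fne and rbp9). lncRNA:CR34335 and 18SrRNA-Psi:CR41602 lie to the right of all others, and 18SrRNA-Psi:CR41602 is spread most among the leading genes, from 3.48% to 13.7% of the counts.

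Ribosomal protein genes filled several of the next ranks, and RpS14a and RpL24 varied least among the 25 most abundant genes on the library total. RpS14a, a protein of the small ribosomal subunit, had 5620, 6045, 5910 and 5705 CPM, a ratio of 1.08 between the highest and the lowest input on the library total. Its neighbour RpS14b, a tandem copy, had 368 to 494 CPM, and reads may be split between these copies. RpL24 of the large subunit was at 3636 ± 207 CPM. Taken over the 77 genes with such a symbol, a group formed after the values had been seen, ribosomal protein genes took 11.9%, 12.1%, 13.9% and 12.8% of the counts, and the highest share was 1.17 times the lowest. The median ratio of the highest to the lowest input was 1.41 for the 62 of these genes with a mean of at least 20 CPM, against 1.84 for all 4212 genes at that level.

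Among the 25 most abundant were also genes known from fat body, brain, immunity and metabolism. Yp1, a yolk protein secreted into the blood by the fat body of females, was at 3408, 7390, 6721 and 4503 CPM in the w118, pum, fne and rbp9 inputs. apolpp, which encodes the main lipid carrier of fly blood, was at 2740, 5992, 5423 and 4083 CPM, in the same order of inputs as Yp1. IA-2, a protein of dense-core vesicles, which release neuropeptides, was at 4147 ± 759 CPM. Listericin, an antibacterial peptide, was at 2470, 5020, 2636 and 6613 CPM, and Ald1, an aldolase of glycolysis, at 3383 ± 385 CPM. CG31904, for which no role is given here, ran from 2335 CPM in pum to 8956 CPM in w118.

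The counts were concentrated in few genes. The 10 leading genes of each input took 21.1%, 27.3%, 20.3% and 20.9% of the counts in w118, pum, fne and rbp9. It took 146, 90, 142 and 137 genes to reach 50% of the counts. The pum input was thus the most concentrated, and it was also the input with the highest share of ribosomal RNA genes and with the smallest total.

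Lists of genes for the tissues of the head were then compared by their share of the counts, plotted by input for each list. In lysate of whole heads, fewer cells of a type and less RNA per cell cannot be told apart. Counting error was small, with a 95% Wilson interval of at most 0.0130 percentage points to either side of a share. The largest was the list of photoreceptor and phototransduction genes, of which 33 of 34 had a row. They took 5.48%, 4.29%, 4.88% and 4.46% of all counts (4.78 ± 0.53, SD, n = 4), and 31 of the 33 had a mean of at least 20 CPM. The order of the inputs was not firm, because with library sizes scaled by TMM pum was the highest with 5.10% and fne the lowest with 4.51%.

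**Figure D2:**
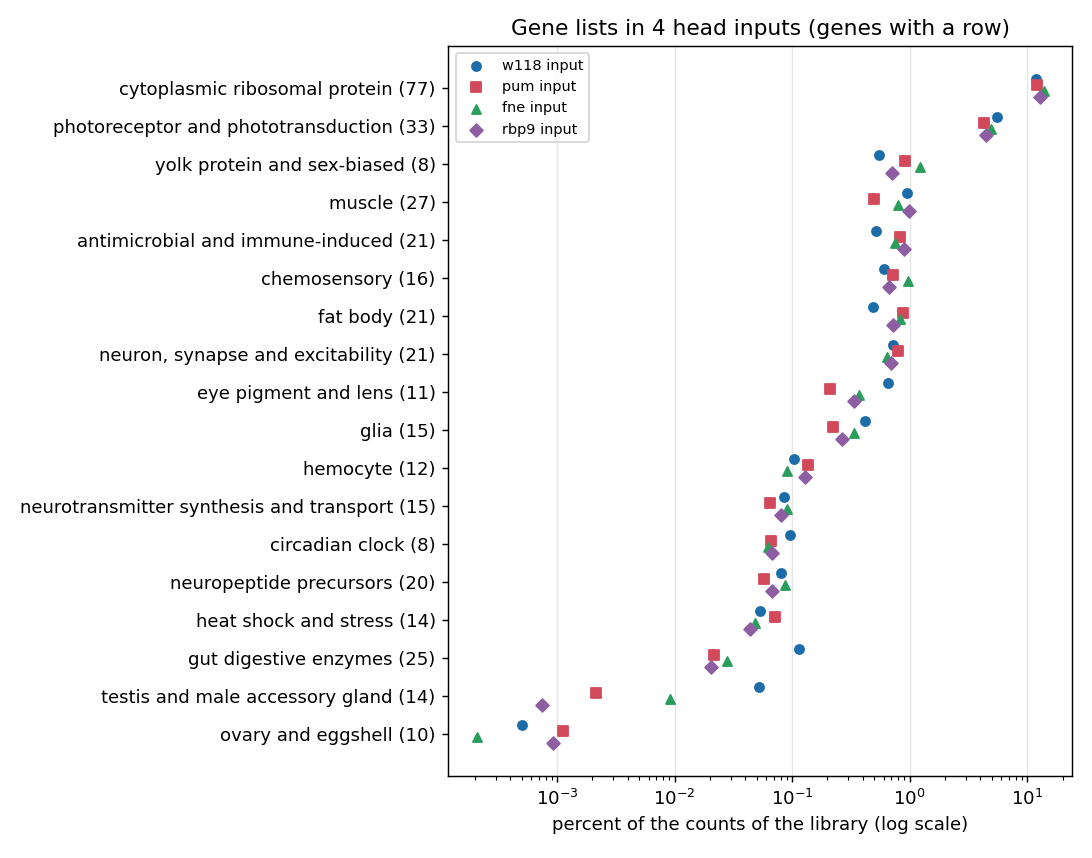
Share of the counts of each input taken by lists of genes, in percent on a log axis, with the number of genes that have a row in parentheses and a symbol for each input. Most lists stay within a few-fold over the inputs, while the list for testis and male accessory gland runs from 0.000750% in rbp9 to 0.0518% in w118 and that for gut digestive enzymes from 0.0203% to 0.115%.

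Behind the opsin and the arrestins came the rest of the light response. norpA, the phospholipase C that the photoreceptor G protein activates, was at 2695 CPM on average, and the light-gated cation channels trp and trpl were at 2114 and 1295 CPM. inaD, the scaffold that holds these proteins together, was at 1283, 1608, 1271 and 1109 CPM. Of the 31 photoreceptor genes with at least 20 CPM, 16 were highest in w118 and 16 were lowest in pum. Of all 4212 genes at that level, 31.4% were highest in w118 and 46.1% lowest in pum, so the share lowest in pum was near that of any gene. The least abundant were ninaD and pinta, which act in the supply and storage of the carotenoid and retinoid of the visual pigment, with means of 0.266 and 6.08 CPM.

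The opsins other than ninaE were next examined one by one. Rh3 and Rh4 are the ultraviolet opsins of the inner photoreceptor R7, Rh5 and Rh6 the blue and green opsins of R8 beneath it, Rh2 is the opsin of the ocelli and Rh7 is found in brain clock neurons. Rh4 was at 365, 345, 1.13 and 319 CPM in the w118, pum, fne and rbp9 inputs, from 5013, 3297, 12 and 3449 counts. The fne input thus held almost no Rh4, and the other inputs lay close together.

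The fne input was also the lowest for Rh3 and Rh5. Rh3 was at 692, 249, 52.3 and 287 CPM and Rh5 at 605, 290, 59.9 and 604 CPM in the same order. The opposite held for Rh6, which was at 152, 26.04, 201 and 87.6 CPM and was highest in fne. Rh2, at 100.2, 41.8, 164 and 80.9 CPM, and Rh7, at 62.7, 32.4, 108 and 73.0 CPM, were highest in fne as well, with pum the lowest for all 3 of these genes. Rh5, Rh3 and Rh4 had mean levels of 390, 320 and 258 CPM with SDs of 265, 269 and 172 CPM, and their order changed between inputs. Rh6, Rh2 and Rh7 had 117 ± 76.2, 96.9 ± 51.2 and 69.1 ± 31.4 CPM. Rh2 was above Rh7 in every input, whereas Rh6 led in all inputs but pum, where it was below both.

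**Figure D3:**
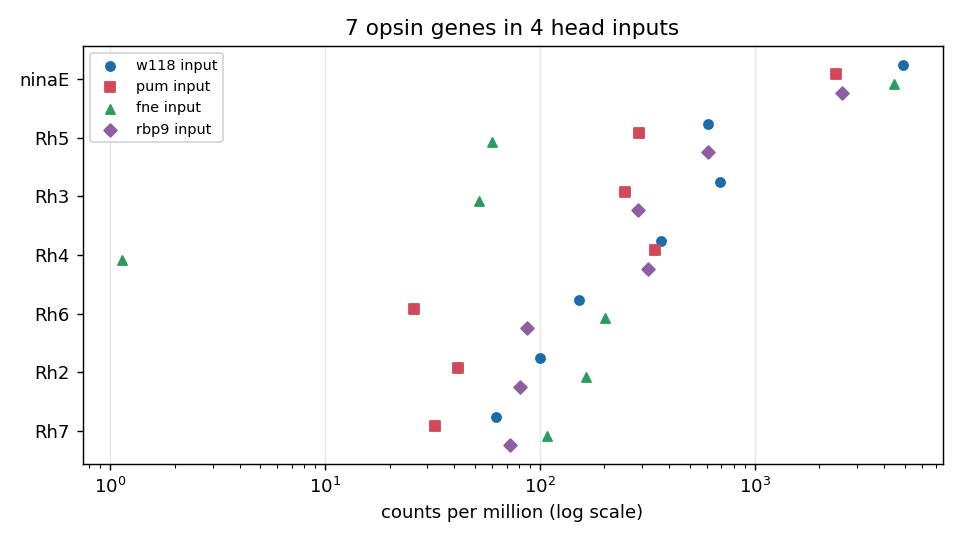
Level of the 7 opsin genes in the 4 head inputs, in CPM on a log axis, with a symbol for each input. ninaE lies above all others in every input, and the fne input sits at 1.13 for Rh4, where the others lie between 319 and 365.

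Genes of eye pigments and of the lens varied more than those of the light response. The 11 of 13 listed genes with a row took 0.652%, 0.211%, 0.372% and 0.336% of the counts, with w118 at 3.08 times the share of pum. Without w118 the highest share was 1.76 times the lowest and the mean 0.306%. retinin, a protein of the corneal lens, was at 2767, 1095, 1124 and 1272 CPM, and Cpr72Ec, a cuticle protein of the same lens, at 1504, 196, 1507 and 959 CPM. The former was thus high in w118 alone, the latter low in pum alone. se, an enzyme for red pteridine pigments, was at 394 ± 69.9 CPM, and Pu, which makes the precursor of these pigments, ranged from 135 CPM in pum to 744 CPM in w118. Of the 9 genes at 20 CPM or above, 6 were highest in w118 and 7 lowest in pum, against 31.4% and 46.1% of all genes at that level.

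Neuronal genes took a similar share in all inputs on the library total, with a ratio of 1.24 between the highest and the lowest, but of 1.59 with TMM scaling. All 21 genes for neurons, synapses and excitability had a mean of at least 20 CPM, and together they took 0.727%, 0.791%, 0.639% and 0.700% of the counts (0.714 ± 0.063, SD, n = 4). Of the 21, 12 were highest in w118 and 5 in pum, against 31.4% and 19.4% of all genes at that level. The pum input was lowest for 6, against 46.1% of all genes. cpx, the complexin that clamps vesicle fusion, was at 1207, 1002, 929 and 965 CPM. nSyb, the vesicle protein of the fusion machinery, was at 951, 1358, 832 and 844 CPM, and futsch, a microtubule-binding protein of axons and synapses, at 922 ± 106 CPM. The exception was para, the voltage-gated sodium channel of nerve cells, named after its values had been seen, with 323, 1242, 249 and 985 CPM, where pum and rbp9 lay above w118 and fne. By the measure of 3′ ends defined below, para used 3, 1, 3 and 2 ends in the same order, so its ends differed along with its level.

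The ELAV family and pum itself were present in every input. elav was at 144, 133, 119 and 140 CPM, a ratio of 1.21. fne was at 360, 226, 282 and 278 CPM and Rbp9 at 97.9, 54.8, 63.7 and 47.1 CPM. In the columns named after these genes, fne was thus neither the highest nor the lowest, and Rbp9 was present but lowest. pum was at 83.3, 31.5, 65.5 and 70.02 CPM and was also lowest in the column of its name. The summed share of the neuronal list was highest in that column, but more of its genes were highest in w118. That sum includes para, which took 0.124% of the counts in pum and 0.0323% in w118.

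Transmitter and neuropeptide genes showed low levels, with a wide range. Genes for making and moving neurotransmitters took 0.0802 ± 0.0110% of the counts. ChAT, the enzyme for acetylcholine, led them with 229 ± 43.8 CPM, ahead of the vesicle transporters Vmat for monoamines, with 153 ± 57.5 CPM, and VGlut for glutamate, with 137 ± 63.4 CPM. ChAT was above Vmat in every input, whereas VGlut was above both in fne, at 214 CPM, so the place of VGlut was not firm. Of neuropeptide precursors, 20 of 22 had a row, and they took 0.0730 ± 0.0132%. ITP, an ion transport peptide, AstA, an allatostatin, and Ilp2, an insulin-like peptide of the brain, had mean levels of 102, 95.2 and 91.8 CPM. AstA was lower in pum, at 71.0 CPM, than in the other inputs, at 102 to 105 CPM.

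Glial genes were found in every input at lower shares. All 15 had a row, and they took 0.416%, 0.225%, 0.335% and 0.264% of the counts (0.310 ± 0.084, SD, n = 4). Gs2, the glutamine synthetase that recycles glutamate, was the most abundant of them, with 2216, 951, 1587 and 1222 CPM. nrv2, a subunit of the sodium pump, was at 581 CPM in w118 and at 304 to 350 CPM elsewhere, and Eaat1, the glial glutamate transporter, at 294 ± 91.4 CPM. The defining transcription factor of glia, repo, was at 24.9, 40.4, 38.3 and 34.9 CPM and so was lowest in w118, in which the list as a whole was highest. Of the 13 glial genes at 20 CPM or above, 8 were lowest in pum, against 46.1% of all genes at that level, and alrm, a marker of astrocytes, was at 3.14 CPM there against 33.7 to 51.1 CPM in the others.

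Muscle genes had their lowest summed share in pum. The 27 listed genes took 0.944%, 0.494%, 0.797% and 0.978% of the counts, and 16 of the 20 at 20 CPM or above were lowest in pum, against 46.1% of all genes at that level. Tm1, a tropomyosin, was at 1477, 494, 1133 and 1262 CPM. Mlp60A, a LIM protein of muscle, did not follow that pattern, with 1037, 1009, 773 and 1347 CPM, and Mf, a protein of thick filaments, was at 897 ± 342 CPM. TpnC25D, a troponin C, was at 876, 24.2, 1407 and 641 CPM, the widest ratio among the abundant muscle genes. Act88F, the actin of the flight muscles of the thorax, was at 271 CPM in w118 and at 6.07 to 37.8 CPM in the others, and TpnC4, a troponin C of the same muscles, at 34.0 CPM in w118 and at 0.185 to 2.35 CPM elsewhere.

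Fat body genes were lowest in w118. The 21 of 24 with a row took 0.492%, 0.872%, 0.835% and 0.724% of the counts (0.731 ± 0.171, SD, n = 4), and 9 of the 15 at 20 CPM or above were lowest in w118, against 16.7% of all genes at that level. Without w118 the share was 0.811 ± 0.077%, and the highest input was 1.20 times the lowest. Tsf1, a transferrin that carries iron, was at 506, 625, 912 and 677 CPM. Lsp1beta, a storage protein of larval blood, was at 40.7, 864, 178 and 877 CPM, so that pum and rbp9 were alike and w118 was lowest. Glyp, which breaks down glycogen in fat body and muscle, went the other way, with 640 CPM in w118 and 249 CPM in pum.

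Yolk and sex-biased genes also varied, although males and females were said to be mixed in equal amounts. Yp3 was at 1051, 952, 2330 and 1742 CPM. Yp2 was at 318, 389, 2578 and 449 CPM, high in fne alone, with a mean of 934 CPM over all inputs and 385 CPM without fne. lncRNA:roX1 and lncRNA:roX2, the male-specific noncoding RNAs of dosage compensation, were highest in w118, at 487 and 71.0 CPM, and lowest in rbp9, at 263 and 28.7 CPM.

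Chemosensory, immune, blood cell and clock genes completed the outline. Odorant-binding proteins were abundant, with Obp99c at 2975 ± 1031 CPM, Obp44a at 1481 ± 322 CPM and Obp19d at 1322 ± 323 CPM, whereas lush, an odorant-binding protein of the antenna, was at 0 in every input and Orco, the co-receptor of olfactory neurons, had at most 1.22 CPM. Antimicrobial genes took 0.747 ± 0.165% of the counts, led by the Bomanins BomS2 and BomS3, with 2004 ± 327 and 1954 ± 528 CPM. Of the 14 such genes at 20 CPM or above, 10 were highest in rbp9, against 22.3% of all genes at that level, and their summed share was highest there too, at 0.894%, but with TMM scaling it was highest in pum. BomBc1 went against that pattern, with 126, 2902, 977 and 631 CPM.

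Genes of blood cells took 0.115 ± 0.0214%, with Glt, Col4a1 and vkg at 340, 255 and 190 CPM, the latter pair encoding collagen IV. The clock genes took 0.0964% in w118 and 0.0627% to 0.0677% in the others, with a mean of 0.0656 ± 0.0026% (SD, n = 3) without w118. tim, the partner of period in the clock, was at 139 CPM in w118 and 33.1 CPM in fne, while cry, the light receptor of the clock, was highest in fne at 89.9 CPM. Heat shock and stress genes stayed low at 0.0541 ± 0.0124%, with Hsp83 at 323 ± 72.3 CPM and TotC and TotA at 126 and 35.5 CPM. Hsp70Bc, which has near-identical copies, was at 0 in all inputs.

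Genes of tissues outside the head were found mainly in w118. The 14 genes of testis and male accessory gland with a row took 0.0518% of the w118 counts and 0.00216%, 0.00916% and 0.000750% in pum, fne and rbp9. Their mean share was 0.0160% with w118 and 0.00403% without it. Acp98AB, a peptide of the seminal fluid, was at 152, 7.74, 14.97 and 2.41 CPM, and Mst84Da, a sperm tail protein, at 72.6, 3.56, 11.3 and 1.67 CPM.

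The 25 gut digestive enzyme genes with a row took 0.115% of the w118 counts and 0.0203% to 0.0279% elsewhere, and their mean share fell from 0.0462% to 0.0233% without w118. alphaTry, a trypsin, was at 320, 47.3, 71.8 and 25.4 CPM. Genes of the ovary and eggshell were near 0 in all inputs, with 0.000207% to 0.00113% of the counts, and bcd, a maternal gene of the egg, had no count. The w118 input was thus the highest for the named flight muscle genes and for the lists of the male tract and gut, but not for the list of eggshell genes. What part tissue other than the head has in the w118 values was not tested. None of the 15 mitochondrially encoded genes of the list is analysed here.

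Levels of a gene commonly differed between inputs by more than counting error. For the 4212 genes with a mean of at least 20 CPM, the median coefficient of variation over the 4 inputs was 26.9%, against 3.94% expected from counting alone. The highest input was within 2-fold of the lowest for 2484 of these genes, 59.0%, and above 8-fold, or with a lowest input at 0, for 111, 2.64%. The 111 were highest most often in w118, with 42, and in fne, with 37, and lowest most often in pum, with 54. These are 37.8%, 33.3% and 48.6% of the 111, against 31.4%, 26.9% and 46.1% of all 4212 genes. Over the same 4212 genes, w118 and fne were the most alike, with 273 genes apart by more than 2-fold and a Spearman correlation of log2(CPM + 1) across genes of 0.90. Next came fne and rbp9 with 442, w118 and rbp9 with 541 and pum and rbp9 with 673, while pum was apart from w118 and from fne in 1010 and 1021 genes.

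Genes with the widest range fell into those missing from a single input and those seen mainly in w118 and fne. CG7484 had 1411, 1807, 1139 and 0 counts in the w118, pum, fne and rbp9 inputs, or 103, 189, 107 and 0 CPM. Cyp6a17, a cytochrome P450, was at 0, 126, 84.0 and 142 CPM, and EMC10, a subunit of a complex that inserts membrane proteins into the endoplasmic reticulum, at 2.19, 252, 176 and 219 CPM. Both were thus nearly or wholly missing from w118. Only 3 genes had at least 20 CPM in 3 inputs and fewer than 3 counts in the other, and they were CG7484, Cyp6a17 and tok, a secreted protease that was at 0 in fne and at 45.3, 47.3 and 32.3 CPM in w118, pum and rbp9. Each of w118, fne and rbp9 lacked 1 of these genes and pum none.

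In the other group were Sfp96F and Sfp87B, seminal fluid proteins, Acp95EF and Mst57Da of the accessory gland, EbpII of the ejaculatory bulb, and CG43147 and CG42852. EbpII was at 287, 2.61, 168 and 7.04 CPM, and Sfp96F at 124, 6.06, 25.6 and 0.0926 CPM. In all 7 the order of the inputs was w118, fne, pum and rbp9, except that EbpII was lower in pum than in rbp9. Cyp6a2, another cytochrome P450, stood alone with 14.3, 18.0, 74.5 and 0 CPM. Apart from tok, these genes and Rh4 are the 12 that were named because their range was widest, so the range itself is no finding.

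The number of 3′ ends per gene was examined next. A cluster was taken as an end in use when it held at least 10 counts and at least 5% of the counts of its gene, in genes with at least 100 counts in the library, after thinning to the smallest input. On this measure the inputs were close. The w118, pum, fne and rbp9 inputs had 2.13, 2.23, 2.14 and 2.12 ends in use per gene (2.15 ± 0.049, SD, n = 4), over 5827, 4950, 5796 and 5432 genes. A single end was used by 39.3 ± 1.0% of genes, 2 ends by 29.5 ± 0.54%, 3 by 16.7 ± 0.25%, 4 by 8.64 ± 0.68% and more than 5 by 2.11 ± 0.35%. The largest number in any input was 10. An end in use is a cluster of reads and was not checked here against 3′ ends known from other data.

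**Figure D4:**
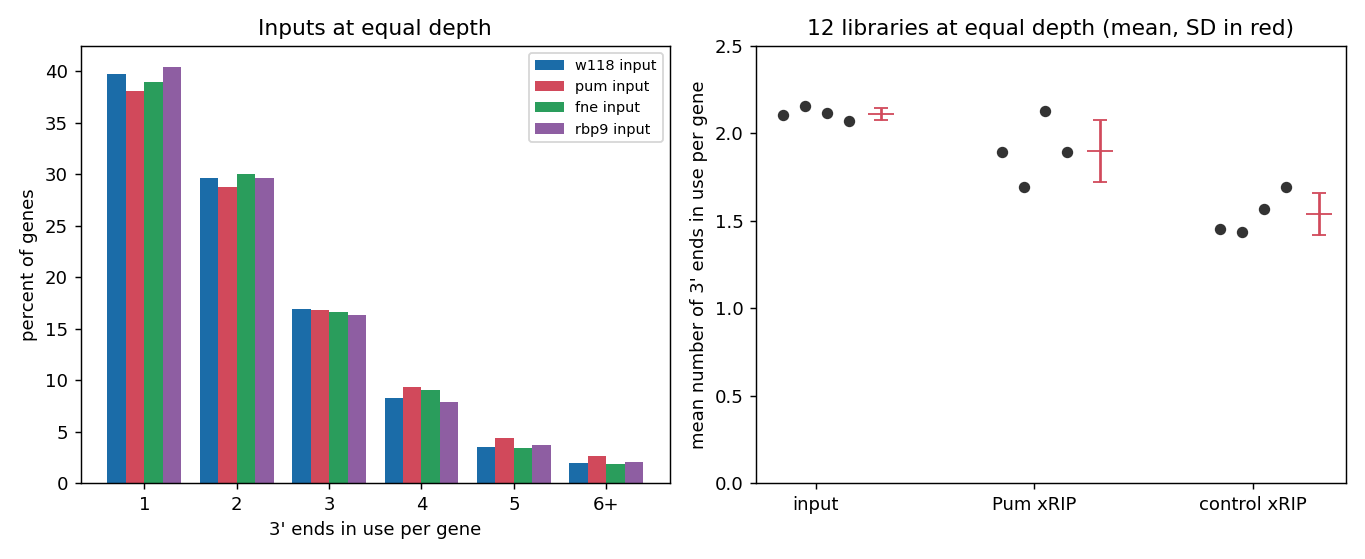
Left, percent of genes by the number of 3′ ends in use in the 4 inputs, thinned to the smallest input. Right, mean number of 3′ ends in use per gene in each of the 12 libraries thinned to the smallest of all, with the group mean and SD in red. The 4 inputs lie between 2.07 and 2.15, the control xRIP libraries between 1.44 and 1.69, and the Pum xRIP libraries between 1.69 and 2.13.

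Single genes were less steady than these means. Of the 4455 genes with at least 100 counts in all thinned inputs, 1906, 42.8%, had the same number of ends in all 4, and 3526, 79.1%, had numbers within 1 of each other. A single end in all inputs was found in 1224 genes, 27.5%, and at least 3 ends in all inputs in 916, 20.6%. Clusters near 5% of a gene can fall on either side of the minimum by counting error.

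The 10 genes with most ends had annotated 3′ UTRs of 294 to 11510 bases. InR, the insulin receptor, used 8, 10, 6 and 8 ends in the w118, pum, fne and rbp9 inputs, and the leading cluster, which was number 8 in w118, 10 in pum and fne and 17 in rbp9, held 24.3%, 12.6%, 22.0% and 23.3% of its counts. Pdp1, a transcription factor of the clock, used 9, 6, 7 and 9 ends, and shakB, an innexin of electrical synapses, 9, 7, 8 and 7. The others were upSET, a chromatin protein, Efa6, a regulator of ARF GTPases, sqd, an RNA-binding protein, Hs3st-A, a heparan sulfate sulfotransferase, Dp1, an RNA-binding protein, mod(mdg4), a chromatin protein with many isoforms, and CG42795. The 10 genes used 6.75 to 8 ends on average, and none had the same number in all 4 inputs.

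At the other extreme stood abundant genes with a single end in every input. The 10 most abundant of these were lncRNA:CR34335, 18SrRNA-Psi:CR41602, Arr2, Arr1, RpS14a, RpL7A, Yp1, CG31904, CG12158 and CG11458. In Arr2 the leading cluster held 94.9%, 97.5%, 97.5% and 95.6% of the counts. ninaE, trp and trpl also used a single end, but other eye genes did not, with 3.50 ends for norpA and for rdgA, a kinase of the lipid cycle of photoreceptors, and 3 for inaD.

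Gene lists had different numbers of ends, and lists with many ends mostly had long annotated UTRs. The 21 neuronal genes used a median of 3.75 ends (mean over inputs 3.46 ± 0.125, SD, n = 4), against 2 for all 4455 genes, and 13 of the 21 used at least 3 ends in every input, 61.9% against 20.6%. The active-zone protein unc-13 used 6.25 ends, the calcium sensor Syt1 5.25, Rbp9 5, fne 4.5 and elav 2.5. The 19 muscle genes used a median of 3.50 ends and the 6 clock genes 3.50, whereas glial and fat body genes, with 13 and 12 members, used 2. The 7 transmitter genes used 2.25, although their median longest UTR was 1614 bases. The 30 photoreceptor genes used 1.63, and the 62 ribosomal protein genes 1, with a single end in every input in 40 of them. The median longest UTR was 3631 bases for the neuronal genes, 881 for muscle, 396 for photoreceptor and 197 for ribosomal protein genes, and 389 for all.

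Across all genes, more ends went with longer UTRs. Sorted into 5 groups of about equal size by the longest annotated 3′ UTR, the genes used 1.46, 1.78, 2.02, 2.48 and 3.29 ends on average, from UTRs of 14 to 115 bases to UTRs of 1342 to 18494 bases, and the SD over the inputs was at most 0.0426. A single end in all inputs was found in 52.4% of the genes with the shortest and in 4.24% of those with the longest UTRs. With 5 groups by level there was no such order, with 2.13, 2.25, 2.34, 2.26 and 2.06 ends from the lowest to the highest. Of 271 genes that the study lists from earlier work as having a neuronal UTR extension, 217 could be scored, and they used 3.65 ends on average with a median UTR of 2798 bases. Since long UTRs go with these lists, the part of length in the difference was not tested.

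Runs of A beside annotated ends were more common in genes with many ends. At least 1 annotated end was followed by such a run in 453 of 905 genes with 3 or more ends in every input, 50.1%, in 133 of 1216 genes with a single end, 10.9%, and in 20.9% of all genes. Genes with many ends also have more annotated ends, 2.19 against 1.22 on average. For the farthest end alone the shares were 21.7% and 8.96%. What part these places have in the number of ends was not tested. AATAAA before the farthest end was found in 57.0% of the genes with 3 or more ends and in 59.4% of those with a single end.

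The order of the cluster numbers was read as genome order. In genes with at least 5 clusters of which a single one held 90% of the counts, it stood at a median place of 69.0% of the numbers on the plus strand (214 genes) and 27.9% on the minus strand (210 genes), a mirror image. On that reading, the leading end of genes with more than 1 end in use was the farthest downstream in 47.2%, 43.5%, 45.8% and 44.5% of genes in the w118, pum, fne and rbp9 inputs (45.3 ± 1.6, SD, n = 4). It was the farthest upstream in 33.3 ± 0.92%. Among the genes with a neuronal UTR it was the farthest downstream in 36.6 ± 3.2% and the farthest upstream in 25.9 ± 1.4%, so that in the remaining genes an end between these led. Both shares are lower than for all genes with more than 1 end. As scored above, genes with a neuronal UTR used 3.65 ends on average, against 2.21 for all 4455 genes. The part of the number of ends in these shares was not tested. In elav, on the minus strand, the leading end had number 55 and held 63.3%, 61.4%, 54.8% and 69.8%, and the end farthest downstream, number 1, held 12.6%, 14.98%, 8.50% and 5.09%. In fne, on the plus strand, number 58 held 37.3%, 35.5%, 33.6% and 31.3% and led in all inputs but pum, where number 53 held 37.2%.

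The leading end was mostly the same in all inputs. Among the 3315 genes with at least 200 counts in every input, 2698, 81.4%, had the same leading end in all 4. The median over genes of the largest difference in the share of a cluster between inputs was 12.4 percentage points. For scale, counting alone gives a standard error of 3.54 points for a single share of 50% at 200 counts. The largest difference over clusters and inputs exceeds a single standard error by counting alone, so these values are not like measures. The difference was above 25 points in 717 genes and above 50 points in 97, 2.93%. In the 97 genes the input that lay apart by the widest gap was pum in 34, rbp9 in 17, fne in 15 and w118 in 13, and in 18 the inputs split 2 against 2.

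Some genes changed their end almost fully from input to input. These genes were named because the difference was largest, so that their values are a description. The distance between their numbered ends is not known, because clusters carry no coordinates. Fdh, an enzyme that oxidises formaldehyde with glutathione, had all its 1634 counts at end 3 in w118, whereas end 1 held all 1319 counts in pum, 94.8% in fne (95% Wilson interval 93.7 to 95.8) and all 2237 counts in rbp9. None of the 1634 w118 counts lay at end 1, which allows a share of up to 0.184%. The level of the gene was 119, 138, 160 and 207 CPM.

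Men-b, a malic enzyme, set w118 apart in the same way. End 6 held 3.39% in w118 and all 1042 counts in pum, 99.7% in fne and 99.8% in rbp9, and end 3 held 93.9% in w118 and none in the others. In scu, a mitochondrial dehydrogenase, rbp9 stood apart, with all 4104 counts at end 1, which held 1.73%, 1.67% and 3.02% in w118, pum and fne. The level of Men-b was 101 to 120 CPM and that of scu 340 to 588 CPM.

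In the remaining genes the inputs took intermediate shares. ox, a subunit of complex III of the respiratory chain, had 99.9%, 40.9%, 0.515% and 0.556% of its counts at end 2 in the w118, pum, fne and rbp9 inputs, from 8186 to 15384 counts. eIF3f1, a subunit of a translation initiation factor, had 0.127%, 99.6%, 0.525% and 59.3% at end 4. Eaat2, a transporter of acidic amino acids, had 0.475%, 46.1%, 69.3% and 99.3% at end 3. Adgf-C, an adenosine deaminase of the growth factor family, had 96.8%, 0 of 216 counts, 65.4% and 82.1% at end 2, and BomT2, a Bomanin, had 0.167%, 47.3%, 0.262% and 96.6% at end 4. No input stood apart in all 8 genes.

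**Figure D5:**
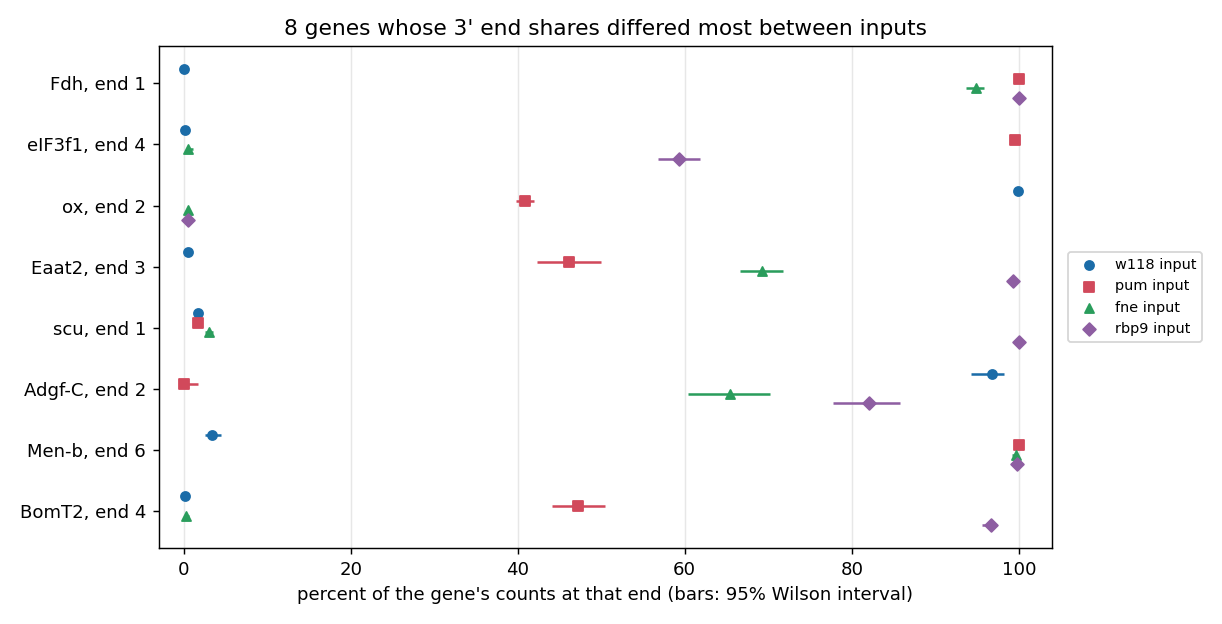
Percent of the counts of the gene at the named end in the 4 inputs, for the 8 genes with the largest difference between inputs, with 95% Wilson intervals as bars. Shares near 0 and near 100 stand side by side for Fdh, Men-b and scu, while Eaat2 has inputs at 0.475%, 46.1%, 69.3% and 99.3%.

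Among abundant genes, cpx and apolpp moved less but in many counts. End 6 of cpx held 19.0%, 52.5%, 20.8% and 34.7%, and end 50, farther downstream, 31.2%, 7.80%, 26.4% and 22.8%, so that pum leaned to the upstream end. End 18 of apolpp held 47.3%, 63.2%, 41.7% and 52.9%. In pum the gene, end 10 held 31.8%, 9.97%, 34.3% and 42.3%, the lowest share in the pum input. The noncoding RNA lncRNA:noe kept its leading end 1 at 38.3%, 38.5%, 43.6% and 46.2%.

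The number of ends in the input was set beside that in the immunopurified libraries, with all 12 libraries thinned to the smallest, of 3050717 counts. The question was whether the lysate shows as many ends per gene as the RNA recovered from it. The inputs had 2.10, 2.15, 2.12 and 2.07 ends in use per gene in w118, pum, fne and rbp9. The Pum xRIP libraries had 1.89, 1.69, 2.13 and 1.89, and the control xRIP libraries 1.45, 1.44, 1.57 and 1.69. The input group overlapped with Pum xRIP through a single library and lay above every control xRIP library. With 1 count and no share minimum, the thinned inputs had 5.31 to 5.87 clusters per gene. Pum xRIP then had 2.10 to 3.06 and control xRIP 1.82 to 2.19. Thinning matches counts and not distinct molecules, and the part of library complexity in the difference was not tested.

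The input lay 0.572 ends above control xRIP, which gave p = 0.0286 in an exact two-sided permutation test, the smallest that 4 against 4 libraries allow, and 0.0571 after Benjamini-Hochberg adjustment over the 2 comparisons, so the difference did not pass 0.05. Against Pum xRIP the difference was 0.209 ends (exact permutation p = 0.114, adjusted 0.114). Among genes with at least 1000 counts the direction turned, with -0.472 ends between input and Pum xRIP (exact permutation p = 0.0286). The genes scored differ between libraries, with 2796 to 3320 in inputs, 2985 to 3129 in Pum xRIP and 2382 to 2552 in control xRIP, and the part of this in the difference was not tested.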

How the data were processed

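Libraries of RNA from adult fly heads were made by the authors from 10 ng RNA with QuantSeq 3′ mRNA-Seq REV and sequenced in pairs. Per their methods, reads were trimmed with fastp and mapped with STAR 2.6.1b to dm6 without splicing. Signal next to genomic A runs was removed except within 25 bases of annotated ends, signal up to 500 bases downstream of genes was kept, and peaks with a depth of at least 6 were grown by 15 bases into clusters and merged. For its length analyses the study further compared clusters with a set of high-confidence 3′ ends. The deposited clusters carry no mark of this step, so which of them lie at such ends is not known. The deposited values are whole-number counts for genes and for clusters, without molecular identifiers or normalization. For all 10422 genes the count of the gene equalled the sum over its clusters. Tables prepared for differential tests with DESeq repeated these counts and were not used, and 0 columns of other samples were present. Depth ranged from 9563433 to 13726254 counts per input and from 3050717 to 5051009 per immunopurified library.

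Levels are CPM on the library total. TMM factors came from edgeR 4.0.16 in R 4.3.3, all other values from Python 3.11.15, numpy 2.4.6, pandas 2.3.3 and scipy 1.17.1. Counting of ends was tested on simulated data. Symbols, positions and UTRs came from Ensembl release 115 on the dm6 assembly (10345 of 10422 genes). Genes were named by fixed rules: the 25 most abundant, the 3 most abundant of each list and those at 0, the opsins, elav, fne, Rbp9 and pum, the 12 with the widest range, the 10 with most ends, the 10 most abundant with a single end, and the 8 with the largest change of end. Other genes named were chosen after their values were seen. Members, lists and rules were chosen with earlier results of these data known. Alternatives were other minima for an end, no thinning, genes with at least 1000 counts, other scalings and leaving out libraries.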

Additional observations from a re-analysis of the deposited data

Results flagged for a closer look

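Within the 4 inputs, 134 measures were examined for a sample whose gap to its nearest neighbour was wide against the range of the group (Dixon's criterion at 95%), and 20 were found, where chance gives about 6.7, but the measures are not independent and include genes named for their wide range, Rh4 and CG42852 among those found, to which the chance number does not apply.

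Of these, 11 were high values of the w118 input. They were the shares of testis and male accessory gland genes (0.0518%, others up to 0.00916%), gut digestive enzymes (0.115%, others up to 0.0279%) and clock genes (0.0964%, others up to 0.0677%), and the CPM of Acp98AB (152), Mst84Da (72.6), CG42852 (371), alphaTry (320), betaTry (144), Jon65Aiv (172), retinin (2767) and nrv2 (581). The lists of the male tract and of the gut were thus both highest in this library.

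The pum input was set apart by 7 measures. It was high for the ribosomal RNA pseudogenes 28SrRNA-Psi:CR45851 (7364 CPM, others up to 3404) and 28SrRNA-Psi:CR40741 (6437 CPM, others up to 2465), for eIF3f1 (229 CPM, others up to 134), for the eggshell gene Cp16 (6.17 CPM, 0 in the others) and for the share of its 10 leading genes (27.3%), and low for protein-coding genes (74.3%) and AstA (71.0 CPM). The fne input was set apart by Yp2 (2578 CPM, others up to 449) and by Rh4 (1.13 CPM, others from 319). Of the Yp2 counts in fne, 79.0% lay at end 8, which held 2.78%, 3.98% and 9.25% in w118, pum and rbp9. No measure set rbp9 apart.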

How the results depend on the processing

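No paired analysis was possible because the fne and rbp9 inputs carry no replicate number and the inputs share none with the immunopurified libraries. The number of ends depends on its definition. In input it was 4.65 per gene with 1 count and no share minimum, 1.73 with a minimum of 10% of the gene and 2.08 in genes with at least 1000 counts, against 2.15, and from 2.13 to 2.17 with a library left out. Against Pum xRIP the difference passed the threshold before adjustment with 1 count and no share minimum (2.93 ends) and without thinning (0.335), and turned to -0.472 in genes with at least 1000 counts. It was 0.140 to 0.284 with a library left out. Against control xRIP it was 0.539 to 0.624 with a library left out and 0.591 without the 2 inputs of mixed genotype. With fewer libraries the smallest p of the exact permutation test is 0.0571 or 0.133, so those tests say nothing about stability. Genes detected fell to 8373 with a minimum of 10 counts, and were 8924 to 9218 with an input left out.

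Leaving the 10 most abundant genes out of the totals raised the shares of photoreceptor, neuronal, glial and fat body genes to 6.12%, 0.918%, 0.395% and 0.942%, by the smaller denominator. Leaving out genes named as ribosomal RNA or its pseudogenes, chosen after seeing the data, raised the neuronal share to 0.790%. With an input left out, the photoreceptor, neuronal, glial, muscle and fat body shares ran from 4.54% to 4.94%, 0.689% to 0.739%, 0.275% to 0.338%, 0.745% to 0.906% and 0.684% to 0.811%. Of the other 120 levels, each a mean over inputs, 55 moved by over 1 SD without the 10 leading genes and none with TMM. The TMM factors lie on both sides of 1 and largely cancel in a mean, so this says nothing about differences between inputs. Without the 2 inputs of mixed genotype, 17 changed by more than 1.5 times (0.379 to 2 times the main value). Without w118, 15 changed by more than 1.5 times, among them Rh3 (196 CPM without it), EbpII (59.1 CPM) and alphaTry (48.2 CPM). BomBc1 (578 CPM), Cp16 and Cp18 did so without pum, Yp2 (385 CPM), TotA (23.3 CPM) and Cyp6a2 (10.8 CPM) without fne, and Cp38 without rbp9. A count of 0 in an input allows levels up to 0.219 to 0.314 CPM.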
